A study of Mus musculus with 8 samples.

Results

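Anatomical site was compared across 8 mouse primary osteosarcomas, 5 from the tibia and 3 from the humerus or scapula. Samples were placed by the tumour location that their labels give, and these are 8 of the 8 tumours of the series. Each array held RNA of 1 tumour from a C57Bl6 mouse. Tibial tumours 1, 2 and 3 were of the shRNA OS model, in which p53 was targeted by the transgenic hairpin P53.1224, and tibial tumours 4 and 5 were of the Cre:lox OS model, with P53fl/fl alleles. The other group held 1 humerus tumour of shRNA OS, 1 humerus tumour of Cre:lox OS and 1 scapula tumour of Cre:lox OS. Tibial tumour 2 and the scapula tumour were Rb+/+ and the remaining 6 were Rbfl/+, so loss of p53 function was aimed at in every tumour and no normal bone was part of the comparison. The sources used here do not give the driver of the hairpin or of Cre, nor age or sex.

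The tibia is a hindlimb bone, and the humerus and scapula belong to the forelimb and shoulder girdle. Cells of the limbs keep a record of their position in the Hox transcription factors, which are arranged in clusters and are switched on in overlapping domains along the body and along the limb, while Tbx4 and Pitx1 mark the embryonic hindlimb and Tbx5 the forelimb. Osteosarcoma is a cancer of bone-forming cells, and a piece of such a tumour also holds macrophages, bone-resorbing osteoclasts, vessels, fibroblasts and remnants of the muscle and marrow around it.

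Values are log2 expression levels, so that a difference of 1 is a doubling, and differences are tibia minus humerus and scapula with the model as covariate (limma). Array medians lay between 7.13 and 7.23, and the number of arrays limits the precision. The array of tibial tumour 2 was the least like the rest: its correlation with the other arrays averaged 0.941, against 0.961 to 0.968, and it had an interquartile range of 2.59 against 2.79 to 3.19. Markers of bone-forming cells were high in every tumour. Sparc, the matrix protein osteonectin, ranged from 13.70 to 13.95 and Ibsp, bone sialoprotein, from 12.91 to 13.52. Xist, made from the inactive X chromosome, was 5.95 in tibial tumour 1 and 6.55 in the scapula tumour against 11.80 to 12.84 in the remaining 6, so 1 tumour with a low level lay in each site group. Rb1 ranged from 9.10 to 9.71 with overlapping groups.

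No gene passed an adjusted p under 0.05 in the comparison of sites (limma with Benjamini-Hochberg adjustment over 19938 genes, 0% called). At an unadjusted p under 0.05, 1125 genes differed (5.64%), of which 462 (2.32%) were higher and 663 (3.33%) lower in the tibial tumours. In 121 genes (0.607%) all 5 tibial tumours lay above the other 3, and in 398 (2%) all 5 lay below. The difference was above 0 in 8875 genes (44.5%), with a median over all genes of -0.03. Every gene statement that follows is therefore a description of size and separation in these 8 tumours, and none is a call past the adjusted threshold. The count of higher genes depended on single tumours: it was 720 without tibial tumour 2 and 307 without the Cre:lox OS humerus tumour, where the lower count was 427. Without tibial tumour 2 the lower count was 625, so the higher genes then outnumbered the lower ones.

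Lumican and decorin were higher in the tibial tumours, and lumican had the smallest p of all genes tested. Lum and Dcn encode small leucine-rich proteoglycans, secreted proteins that bind collagen fibrils and govern their spacing and width. Lum measured 9.94, 9.71 and 10.33 in the tibial shRNA OS tumours, 11.05 and 10.48 in the tibial Cre:lox OS tumours, and 6.97, 8.72 and 7.61 in the shRNA OS humerus, Cre:lox OS humerus and Cre:lox OS scapula tumours. Values per tumour are given in this order from here on. The lowest tibial value exceeded the highest of the other tumours, and group means were 10.30 ± 0.52 (SD, n = 5) and 7.77 ± 0.88 (SD, n = 3). The difference was 2.78 (SE 0.29), a 6.87-fold higher level, with a limma adjusted p of 0.104. It was 3.02 among shRNA OS and 2.60 among Cre:lox OS tumours. Lum was the gene that passed the adjusted threshold when the Cre:lox OS humerus tumour was left out (limma adjusted p = 0.0238), with adjusted p-values from 0.172 to 0.921 when any other tumour was left out and from 0.0512 to 0.999 under the other settings.

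Dcn measured 10.75, 10.42, 12.17, 12.01 and 12.67 in the tibial tumours and 8.19, 9.92 and 10.09 in the others. The groups did not overlap, and tibial tumour 2 came closest to the other group. The difference was 2.59 (SE 0.39, 6.04-fold, limma adjusted p = 0.375), and it stayed between 2.34 and 2.81 when any 1 tumour was left out. In the reference gene order Dcn, Lum, Kera and Epyc follow each other on chromosome 10 with no other protein-coding gene between them. Keratocan (Kera) and epiphycan (Epyc), 2 further small leucine-rich proteoglycans, had low levels in every tumour, from 5.09 to 5.63 and from 5.11 to 5.90, and differences of 0.10 and 0.02. The high values in the tibia were thus seen for 2 of the 4 neighbours.

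Of the 13 small leucine-rich proteoglycans measured, 8 were higher and 5 lower in the tibial tumours. Lum and Dcn were the 2 at an unadjusted p under 0.05, against 2.32% of all genes. The list's median difference was 0.10, so the family as a whole lay close to the median of all genes. Asporin (Aspn), a proteoglycan of cartilage and periosteum, had a difference of 0.99 with overlapping groups. Biglycan (Bgn), the close relative of decorin, measured 13.01 to 13.48 in the tibial and 13.16 to 13.48 in the other tumours, a difference of -0.10. Fibromodulin (Fmod) at -0.28 and Prelp at -0.76 pointed the other way, and both groups overlapped.

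**Figure D1:**
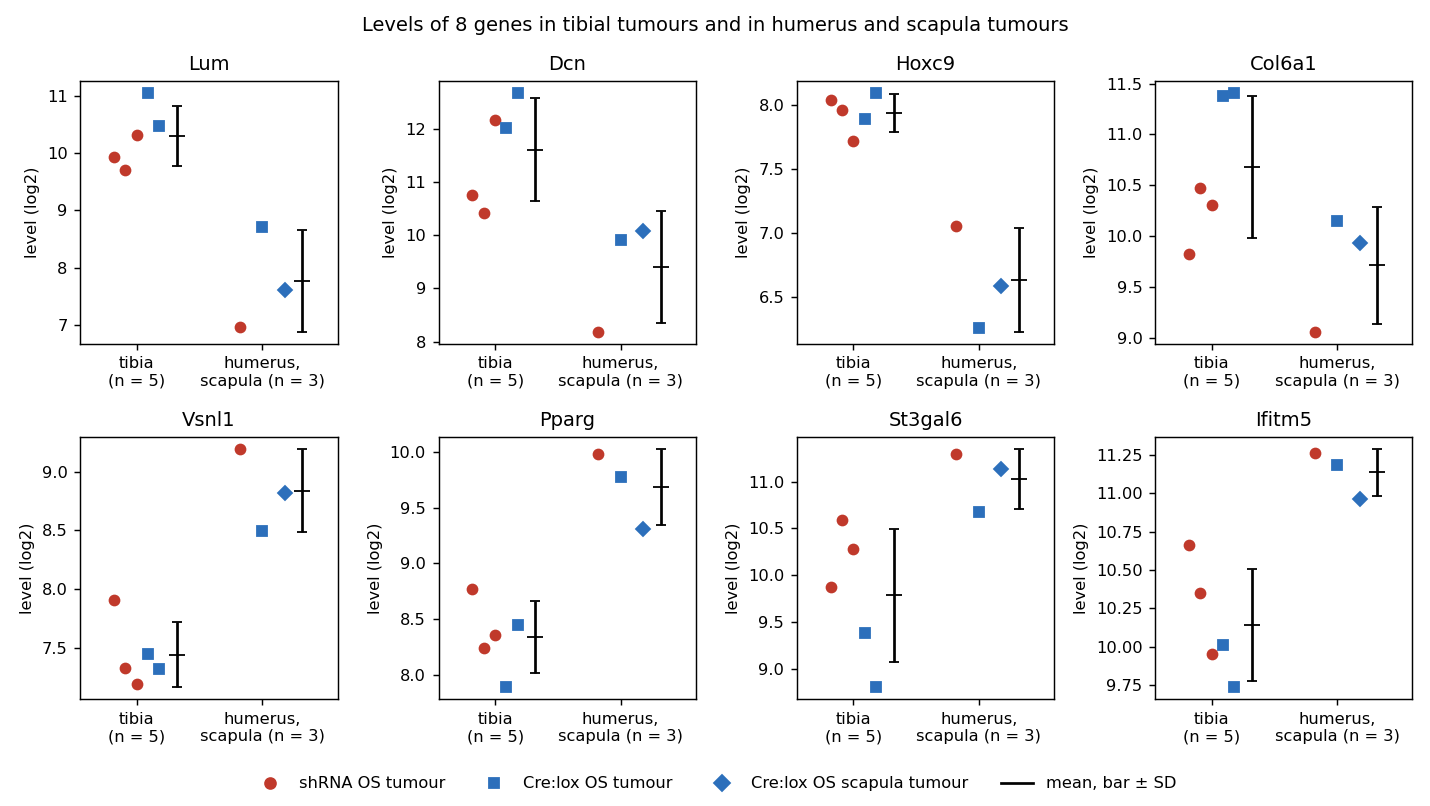
Log2 level of 8 genes (vertical axis) in each of the 5 tibial tumours and the 3 humerus and scapula tumours, with symbols for the model and for the scapula tumour and bars for the group mean ± SD. The upper row holds genes higher in the tibial tumours, and the groups of Col6a1 overlap there. In the lower row all 5 tibial tumours lie below the other 3.

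Chains of collagen VI also had differences above 0, with overlapping groups. This collagen forms beaded microfibrils around cells and binds decorin. Col6a1 measured 9.83, 10.48, 10.31, 11.38 and 11.41 in the tibial tumours against 9.07, 10.15 and 9.94. Cre:lox OS tumours were higher than shRNA OS tumours at either site, so the groups overlapped when pooled, but within each model every tibial tumour lay above the others. The difference was 1.26 (SE 0.18, limma adjusted p = 0.375), 1.14 among shRNA OS and 1.35 among Cre:lox OS tumours. Col6a2, its neighbour on chromosome 10, had a difference of 0.94 (SE 0.29), which was 0.38 among shRNA OS and 1.37 among Cre:lox OS tumours. Its groups overlapped, with 9.69 in tibial tumour 1 against 9.91 to 9.95 in the humerus and scapula tumours. The third chain, Col6a3, differed by 0.53 with overlapping groups.

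Of 12 fibrillar and beaded collagens, 7 were higher and 5 lower. At an unadjusted p under 0.05 stood 4 higher and 0 lower members, against 2.32% and 3.33% of all genes. The 4 were Col6a1, Col6a2, Col14a1 and Col3a1. Col14a1, a collagen that sits on the fibril surface, measured 8.93, 8.53, 7.82, 9.22 and 10.94 against 7.30, 8.70 and 8.40, a difference of 1.35 (SE 0.40). Col3a1, the fibrillar collagen of soft connective tissue, had a difference of 1.04 (SE 0.33), with 0.75 among shRNA OS and 1.26 among Cre:lox OS tumours. Its groups overlapped, with 8.48 to 11.60 in the tibia against 8.22 to 10.10. The collagens that make up mineralised bone did not share this direction. The differences of Col1a1 and Col1a2 were -0.18 and -0.20.

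Fibroblast genes gave a mixed picture. Of 17 measured, 10 were higher, and the median difference was 0.04. At an unadjusted p under 0.05 stood 3 higher members, against 2.32% of all genes. The 3 were Fbln1, Efemp1 and Thy1. Fibulin 1 (Fbln1), a matrix glycoprotein, measured 8.09, 8.10, 8.11, 9.55 and 10.40 in the tibial tumours and 7.49, 8.86 and 9.19 in the others, a difference of 0.80 (SE 0.21). Efemp1, a related protein, reached 11.13 in tibial tumour 5 and lay between 6.02 and 8.38 elsewhere. Its difference of 1.85 (SE 0.67) was 0.52 among shRNA OS and 2.85 among Cre:lox OS tumours, and it was 0.97 without tibial tumour 5. Thy1, a surface protein of mesenchymal cells, had a difference of 0.79. General markers of mesenchymal cells, such as vimentin (Vim) at -0.12 and Pdgfra at -0.26, overlapped.

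Among 14 matrix metalloproteinases and their inhibitors, 8 were higher, 2 of them at an unadjusted p under 0.05 against 2.32% of all genes. Timp1, a secreted inhibitor of these proteases, measured 11.67, 10.83, 11.16, 12.71 and 12.66 in the tibial tumours and 10.09, 11.78 and 11.83 in the others. The difference was 0.99 (SE 0.20), similar within shRNA OS (1.12) and Cre:lox OS (0.88). Mmp2, a gelatinase of stromal cells, was one of the genes whose pooled groups did not overlap, with 12.28 to 12.99 in the tibia against 11.61 to 12.23 and a difference of 0.63. Mmp9, the gelatinase that osteoclasts secrete, had a difference of -1.41 and is taken up with the osteoclast genes.

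Hoxc9 was the gene of limb position with the smallest p. The Hoxc genes from Hoxc9 on are known from hindlimb development, and those from Hoxc4 to Hoxc8 from the forelimb and trunk in front of it. Hoxc9 measured 8.04, 7.96, 7.72, 7.89 and 8.10 in the tibial tumours and 7.06, 6.25 and 6.58 in the others. The tibial values lay close together and above all others, with means of 7.94 ± 0.15 (SD, n = 5) and 6.63 ± 0.41 (SD, n = 3). The difference was 1.27 (SE 0.20, 2.41-fold, limma adjusted p = 0.441), 0.85 among shRNA OS and 1.58 among Cre:lox OS tumours.

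Hoxc10, the next gene of the cluster on chromosome 15, was higher in 4 of 5 tibial tumours. It measured 7.65, 6.77, 6.71, 7.95 and 5.98 against 5.94 to 6.14, a difference of 0.96 (SE 0.42). Tibial tumour 5 lay at the level of the humerus and scapula tumours. Hoxc11, Hoxc12 and Hoxc13 overlapped between the groups, with differences of 0.16, -0.13 and 0.10. Their levels, 5.10 to 7.23, lay below the array medians but for Hoxc12 in tibial tumour 1.

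On the other side of Hoxc9 the differences had opposite signs among shRNA OS and among Cre:lox OS tumours. Hoxc8 measured 7.44, 7.96, 7.76, 8.76 and 7.03 in the tibial tumours and 9.36, 6.93 and 6.70 in the shRNA OS humerus, Cre:lox OS humerus and Cre:lox OS scapula tumours. The shRNA OS humerus tumour was the highest of all 8, and the Cre:lox OS tumours of the same region were the lowest. Hoxc6 had the same order, with 8.98 in the shRNA OS humerus tumour, 7.76 to 8.27 in the tibia, and 7.36 and 6.52 in the other tumours. The pooled differences of Hoxc8 and Hoxc6 were -0.09 and 0.24. Among shRNA OS tumours they were -1.64 and -1.01, and among Cre:lox OS tumours 1.08 and 1.19. Only 1 shRNA OS tumour came from outside the tibia, and a test of the interaction of model and site found 0 genes at a limma adjusted p under 0.05 (571 at an unadjusted p under 0.05).

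**Figure D2:**
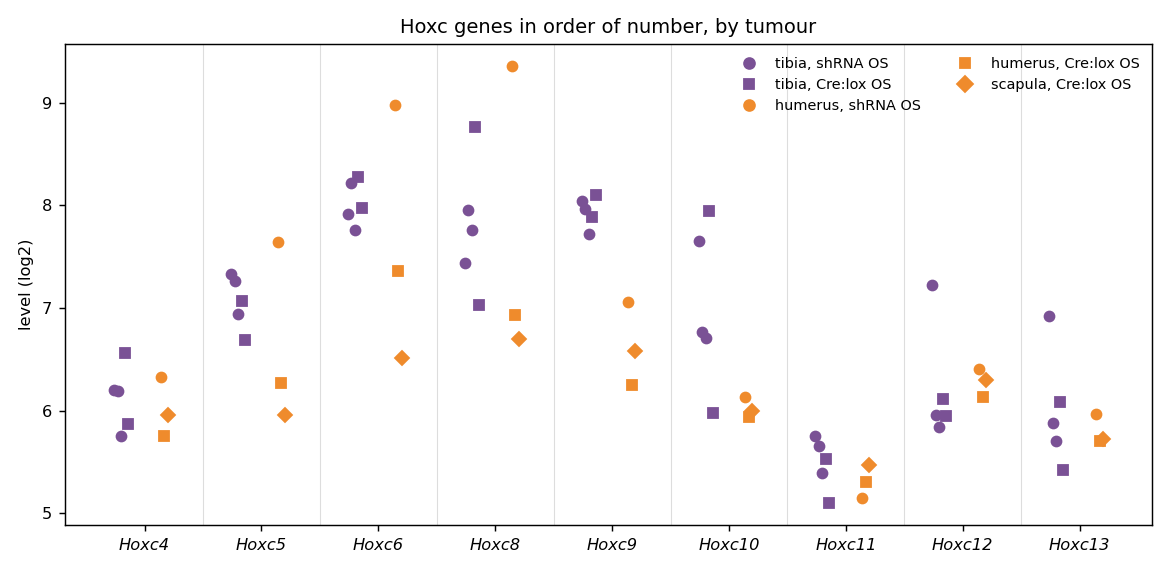
Log2 level (vertical axis) of the 9 Hoxc genes measured, in order of their number, with 1 point per tumour coloured by site and shaped by model. Tibial points lie together above all others at Hoxc9 (7.72 to 8.10 against 6.25 to 7.06), while at Hoxc6 and Hoxc8 the shRNA OS humerus tumour is the highest.

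The classical selectors of limb type did not separate the groups. Tbx4 measured 6.46 to 7.10 in the tibial tumours and 6.52 to 6.74 in the others (difference 0.10), Pitx1 6.43 to 7.22 and 6.78 to 6.92 (-0.02), and Tbx5 5.28 to 5.65 and 5.57 to 5.87 (-0.19). Isl1, which acts before them in the hindlimb bud, had a difference of 0.07. Levels of Tbx5 lay far below the array medians, all levels of Tbx4 lay below them, and most of Pitx1 and Isl1 did. RMA shrinks differences of dim probe sets, so the overlap of these genes cannot decide whether the selectors differ by site. Of the 8 hindlimb genes 2, Hoxc9 and Hoxc10, were higher at an unadjusted p under 0.05, and of the 5 forelimb genes 0, against 2.32% of all genes. The 2 became 1 without tibial tumour 1, 3 or 4 and without any 1 of the humerus and scapula tumours.

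In the Hoxa and Hoxd clusters 7 of 19 genes were higher and 12 lower, with 1 higher and 3 lower at an unadjusted p under 0.05. Over all genes 2.32% were higher and 3.33% lower at that bound. Hoxa10, whose paralogue group patterns the upper limb segment, measured 8.21, 8.32, 8.38, 7.51 and 8.39 against 8.08, 6.63 and 7.02, a difference of 0.74 (SE 0.26) that was 0.22 among shRNA OS and 1.13 among Cre:lox OS tumours. Its neighbour Hoxa9 also had a difference of 0.74, with the shRNA OS humerus tumour at 9.06 among tibial values of 7.92 to 9.16. Of the genes lower in the tibia, 2 of the 19 had separate groups, against 2% of all genes. Hoxa2 measured 7.14 to 7.58 in the tibia against 7.79 to 8.56 (difference -0.65), and Hoxd4 6.50 to 6.72 against 6.74 to 7.17 (-0.37). Hoxd8 differed by -0.42. Of 9 Hoxb genes 8 were lower and 1 higher, where 44.5% of all genes were higher. Their count at an unadjusted p under 0.05 was 0 in either direction, against 5.64% of all genes.

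Among 7 genes of the upper limb and girdle, 2 differed at an unadjusted p under 0.05, against 5.64% of all genes in either direction. Shox2, a homeobox gene of the upper limb segment, had a difference of 0.98 (SE 0.36), with 7.86, 8.59, 9.25, 7.87 and 8.99 in the tibial tumours and 7.92, 7.09 and 7.31 in the others. Emx2, required for the scapula, had a difference of -0.80. Its lowest values were those of the tibial Cre:lox OS tumours, while the tibial shRNA OS tumours (6.82 to 7.42) overlapped the others (6.99 to 7.53). The scapula tumour did not stand out in Emx2 or in Pax1, another gene of the scapula, at 6.99 and 6.75.

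Macrophage genes were higher in the tibial tumours as a group. Of 15 measured, 14 were higher and 1 lower, 13 at an unadjusted p under 0.05 in the higher direction against 2.32% of all genes, and the median difference was 1.17 against -0.03. In bulk tumours a larger share of a cell type and more RNA per cell cannot be told apart. The mean level of the list was 10.48, 9.29 and 9.37 in the tibial shRNA OS tumours and 10.72 and 10.74 in the tibial Cre:lox OS tumours, against 8.76, 9.82 and 9.44. Tibial tumours 2 and 3 therefore lay below the Cre:lox OS humerus tumour, and the pooled groups overlapped. Within each model, every tibial tumour was above the other tumours of that model in 12 of the 15 genes, against 3.01% of all genes (5.52% in the lower direction, where 0 of the 15 lay). A fit without the shRNA OS humerus tumour gives the differences among Cre:lox OS tumours, so it is no separate check on them. The count of 13 became 9 without the shRNA OS humerus tumour, and it was 2 within shRNA OS alone and 12 within Cre:lox OS alone.

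The 3 genes of complement C1q had the smallest p-values of this list. C1q is the recognition part of the classical complement pathway and is made by tissue macrophages from 3 genes that lie next to each other on chromosome 4. C1qc measured 11.94, 10.35, 10.92, 11.80 and 12.24 in the tibial tumours and 9.66, 10.87 and 10.34 in the others. Its difference was 1.41 (SE 0.34, 2.66-fold, limma adjusted p = 0.647), and 1.41 also within either model. C1qb measured 12.51, 11.20, 11.41, 12.63 and 12.66 against 10.63, 11.60 and 11.14, with a difference of 1.19 (SE 0.30). C1qa differed by 1.35 (SE 0.35). In all 3 genes the shRNA OS humerus tumour was the lowest of the 8.

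The 250 bases upstream of 2 of these starts are shown because the genes lie next to each other and had differences of like size (RefSeq, GRCm38.p6, each written 5′ to 3′ on its own minus strand). C1qa, at a difference of 1.35, shares both features, and its sequence is not shown. C1qb lies at chr4:136886201-136886450 and C1qc at chr4:136892915-136893164. Capitals mark GAGGAA, the core read by PU.1, the ETS factor of macrophages, or its reverse complement TTCCTC.
C1qb: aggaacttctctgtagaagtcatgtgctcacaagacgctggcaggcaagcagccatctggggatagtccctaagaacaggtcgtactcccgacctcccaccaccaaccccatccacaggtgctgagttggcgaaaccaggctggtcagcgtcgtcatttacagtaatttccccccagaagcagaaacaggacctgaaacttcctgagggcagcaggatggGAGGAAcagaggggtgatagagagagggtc
C1qc: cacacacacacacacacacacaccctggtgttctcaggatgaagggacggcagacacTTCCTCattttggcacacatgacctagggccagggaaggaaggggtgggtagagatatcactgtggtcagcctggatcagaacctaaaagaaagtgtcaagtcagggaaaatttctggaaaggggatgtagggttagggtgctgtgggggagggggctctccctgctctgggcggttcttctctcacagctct
Each window held 1 match to GAGGAA on either strand and 0 to TATAAA. Of 32851 promoter windows of the same length, 23.3% held GAGGAA and 12.4% TATAAA on either strand, so the match is a common one and describes the letters only.

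Other macrophage genes had differences of the same order. Adgre1, a surface receptor that marks mouse macrophages, measured 11.19, 9.10, 9.18, 10.98 and 11.29 against 8.07, 9.90 and 9.26, a difference of 1.64 (SE 0.46). Lysozyme (Lyz2) differed by 1.29, the mannose receptor Mrc1 by 1.20 and Itgam, an integrin of myeloid cells, by 1.03. Aif1, a cytoskeletal protein of macrophages, was the member whose pooled groups did not overlap, with 7.39 to 8.81 in the tibia against 6.81 to 7.29 (difference 1.16). Csf1r, the receptor for macrophage colony-stimulating factor that osteoclast precursors also carry, had a smaller difference of 0.46. Cd68, a lysosomal protein abundant in both macrophages and osteoclasts, was the 1 lower member at -0.04, and Cd163 differed by 0.18.

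The 12 genes named in the higher direction for small p and separated groups included Lum, Dcn and Hoxc9. P2ry13, a receptor for ADP, measured 9.19, 8.33, 8.49, 9.57 and 10.05 in the tibial tumours against 7.79, 8.29 and 7.71, a difference of 1.41 (SE 0.29). Sp140, a nuclear body protein of immune cells, differed by 1.24 (SE 0.28), and Lpcat2, which takes part in making platelet-activating factor, by 1.13 (SE 0.28). Sh2d1b1, an adaptor of the SLAM receptors, measured 6.57 to 7.54 in the tibia and 5.73 to 5.80 in the others, a gap wider than the spread of the 3 low tumours. Its difference was 1.15 (SE 0.25). Limma adjusted p-values of these 4 genes lay between 0.616 and 0.668.

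Htra1, a secreted serine protease of the matrix, measured 10.23, 9.60, 9.41, 10.10 and 10.87 against 7.33, 9.34 and 8.86, a difference of 1.83 (SE 0.31, 3.56-fold), 2.42 among shRNA OS and 1.39 among Cre:lox OS tumours. The shRNA OS humerus tumour was the lowest, and tibial tumour 3 exceeded the Cre:lox OS humerus tumour only slightly. Igf1, a growth factor stored in bone matrix, measured 8.94 to 9.52 in the tibia and 8.09 to 8.49 in the others, a difference of 0.93 (SE 0.18). Abcd2, a peroxisomal transporter of very long fatty acids, differed by 1.33, Dnah7c, a dynein chain of cilia, by 0.86, and Ntpcr, a nucleoside triphosphatase, by 0.78.

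MHC class II genes, which present antigen on macrophages, dendritic cells and B cells, were all 6 higher in the tibial tumours. Their median difference was 0.90, and 44.5% of all genes were higher. H2-Ab1 was the member at an unadjusted p under 0.05 (difference 1.09, SE 0.46), against 2.32% of all genes. It measured 12.06 in tibial tumour 1, 10.28 to 10.79 in the other tibial tumours, and 10.22, 8.51 and 10.03 in the humerus and scapula tumours. H2-Aa also had groups that did not overlap (difference 1.05), and 0.607% of all genes were separated in this direction. In both genes the Cre:lox OS humerus tumour was the lowest. The gap between the lowest tibial tumour and the shRNA OS humerus tumour was small in H2-Ab1, 10.28 against 10.22, and likewise in H2-Aa. Of the 6 members 0 reached an unadjusted p under 0.05 when tibial tumour 4 or 5 or either humerus tumour was left out.

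Osteoclast genes pointed the other way. Osteoclasts arise from the macrophage lineage and resorb bone with acid and proteases. Of 15 genes 14 were lower in the tibial tumours, with a median difference of -0.96, but 1 was at an unadjusted p under 0.05 against 3.33% of all genes. The mean level of the list was 8.98, 10.44, 11.17, 9.74 and 9.62 in the tibial tumours and 10.73, 10.92 and 10.76 in the others. The 3 humerus and scapula tumours were alike, while the tibial tumours ranged from the lowest to the highest of all 8. Tibial tumour 3 held the highest value, and without it 12 of the 15 genes were lower at an unadjusted p under 0.05, whereas without tibial tumour 4, tibial tumour 5 or the Cre:lox OS humerus tumour 0 were.

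Ocstamp, a membrane protein needed for the fusion of osteoclast precursors, was the member at an unadjusted p under 0.05. It measured 7.68, 9.90, 10.65, 8.36 and 8.34 against 10.23, 10.49 and 10.80, a difference of -1.66 (SE 0.62). Oscar, a costimulatory receptor of osteoclasts, ranged from 7.46 in tibial tumour 1 to 11.80 in tibial tumour 3, and averaged 10.74 ± 0.39 (SD, n = 3) in the others (difference -1.82). Mmp9 measured 10.12, 12.96, 13.30, 11.52 and 11.40 against 13.12, 13.16 and 13.19. Tibial tumours 1, 4 and 5 were low in each of these genes, and the same 3 tumours had the highest mean levels of the macrophage list. Tnfrsf11a, the RANK receptor, had a difference of 0.06.

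**Figure D3:**
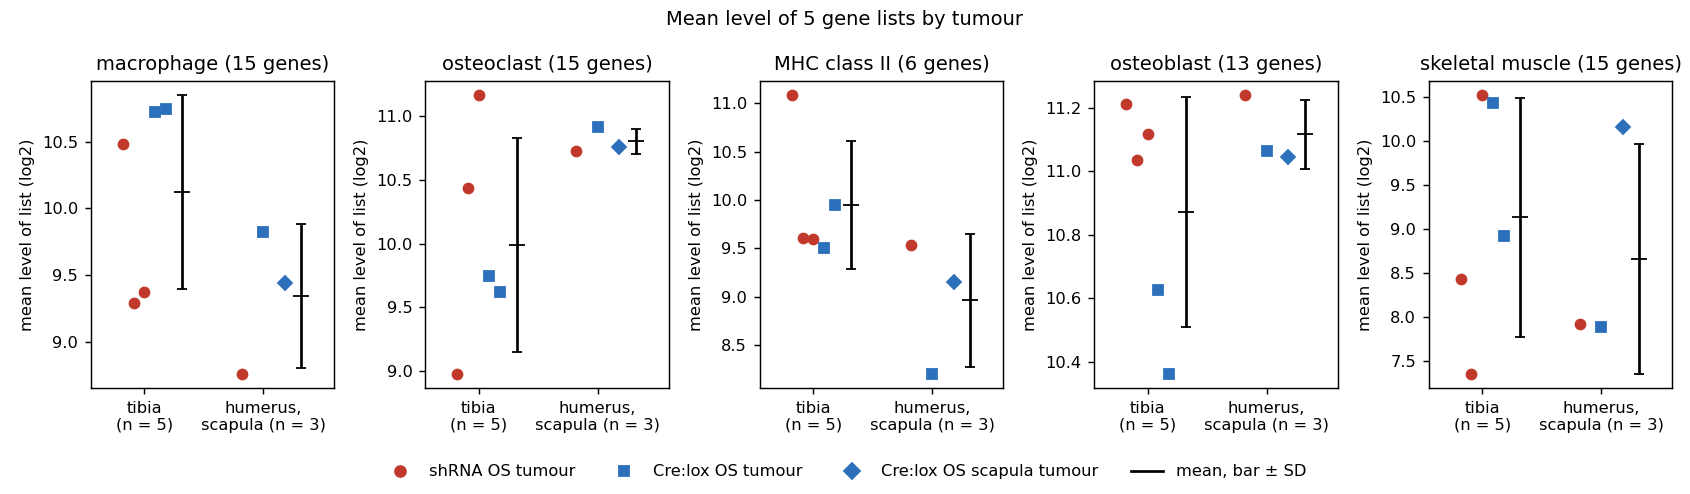
Mean log2 level over the members of 5 gene lists (vertical axes) in each tumour, with bars for the group mean ± SD. Osteoclast levels are alike in the 3 humerus and scapula tumours (10.73 to 10.92) and spread from 8.98 to 11.17 in the tibia, and macrophage levels of the tibial tumours exceed those of the other tumours of the same model.

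Of 13 osteoblast genes 11 were lower and 2 higher in the tibial tumours, where 44.5% of all genes were higher, and the median difference was -0.48. At an unadjusted p under 0.05 were 5 lower and 1 higher, against 3.33% and 2.32% of all genes. In shRNA OS tumours alone 1 was lower at that bound, and in Cre:lox OS tumours alone 7 were. Ifitm5, an osteoblast membrane protein, measured 10.66, 10.35, 9.96, 10.01 and 9.74 against 11.26, 11.18 and 10.96. All 5 tibial tumours were lower, by a difference of -1.09 (SE 0.20, 2.12-fold, limma adjusted p = 0.551). Smpd3, a sphingomyelinase needed for mineralisation, measured 11.28, 10.71, 10.86, 9.46 and 8.93 against 11.75, 9.97 and 10.26, so that the order held within each model and not across them (difference -0.87, SE 0.20).

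Pth1r, the receptor for parathyroid hormone, measured 11.44, 11.90, 11.34, 9.97 and 9.57 against 11.82, 11.79 and 11.93. The low values were those of the tibial Cre:lox OS tumours, and the difference of -1.30 was -0.26 among shRNA OS and -2.09 among Cre:lox OS tumours. Dlx5, a homeobox factor of osteoblasts, differed by -0.97 and the alkaline phosphatase gene Alpl by -0.45, both with overlapping groups. Postn, which encodes periostin and is the 1 member higher at an unadjusted p under 0.05, measured 11.36 to 13.13 in the tibia, 8.48 in the shRNA OS humerus tumour, and 12.34 and 12.22 in the Cre:lox OS tumours from elsewhere. Its difference was 1.71 (SE 0.48). Sparc, at 13.70 to 13.95 in all 8 tumours, differed by -0.08.

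Among 9 osteocyte genes, Mepe, a phosphoglycoprotein of bone matrix, had a difference of -1.02 and Pdpn, an early osteocyte protein that stromal cells also carry, one of 1.27. Pdpn was high in the tibial Cre:lox OS tumours (10.90 and 10.97) and measured 7.80 to 9.16 elsewhere. Of 15 chondrocyte genes 1, Sox6, was lower at an unadjusted p under 0.05, against 3.33% of all genes. Sox6 measured 7.40 to 9.13 in the tibia against 9.10 to 9.42, a difference of -0.98. The cartilage matrix genes Acan and Col2a1 differed by -0.45 and 0.22 with overlapping groups. Of 10 tendon and joint lining genes 0 reached an unadjusted p under 0.05 in either direction.

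In the lower direction, Vsnl1 and Pparg had the smallest p among the genes with separate groups. Vsnl1, a neuronal calcium sensor, measured 7.91, 7.33, 7.19, 7.45 and 7.32 in the tibial tumours and 9.20, 8.49 and 8.82 in the others. Group means were 7.44 ± 0.28 (SD, n = 5) and 8.84 ± 0.35 (SD, n = 3), a difference of -1.47 (SE 0.21, 2.76-fold, limma adjusted p = 0.375). Pparg, the nuclear receptor that drives fat cell formation, measured 8.77, 8.24, 8.36, 7.89 and 8.45 against 9.98, 9.77 and 9.31. The difference was -1.44 (SE 0.21, 2.71-fold, limma adjusted p = 0.375), -1.52 among shRNA OS and -1.37 among Cre:lox OS tumours. Leaving out any 1 tumour kept it between -1.58 and -1.32.

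Other genes of the adipocyte list did not share the size of the Pparg difference. Of 13 measured 10 were lower, 2 at an unadjusted p under 0.05 against 3.33% of all genes. The groups of 3 did not overlap, against 2% of all genes. Fabp4, a fatty acid carrier of fat cells, macrophages and vessels, measured 8.76 to 9.54 in the tibia and 9.62 to 10.67 in the others, a difference of -0.80. The lipid droplet gene Plin4 differed by -0.27. Adipoq and Lep, hormones made by mature fat cells, stayed between 5.01 and 5.94 in every tumour, with differences of -0.02 and 0.03.

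Besides Vsnl1, Pparg and Ifitm5, the genes named in the lower direction had differences from -1.48 to -0.68. St3gal6, a sialyltransferase, measured 9.88, 10.59, 10.28, 9.38 and 8.80 against 11.29, 10.67 and 11.13, a difference of -1.48 (SE 0.26). The gap between tibial tumour 2 and the Cre:lox OS humerus tumour was narrow. Mex3a, an RNA-binding protein, differed by -0.94, Tfdp2, a dimer partner of the E2F factors, by -0.91, and B3gnt5, an enzyme of glycolipid synthesis, by -0.89. Lrp4, a receptor that holds the Wnt antagonist sclerostin at the cell surface in bone, measured 9.52 to 10.24 against 10.41 to 10.84 (difference -0.82). Tent5c, a poly(A) polymerase, differed by -0.81, and Tgfa, a ligand of the EGF receptor, by -0.80, as did Dzip1l, a protein of the primary cilium. Hcar1, a lactate receptor, differed by -0.68.

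**Figure D4:**
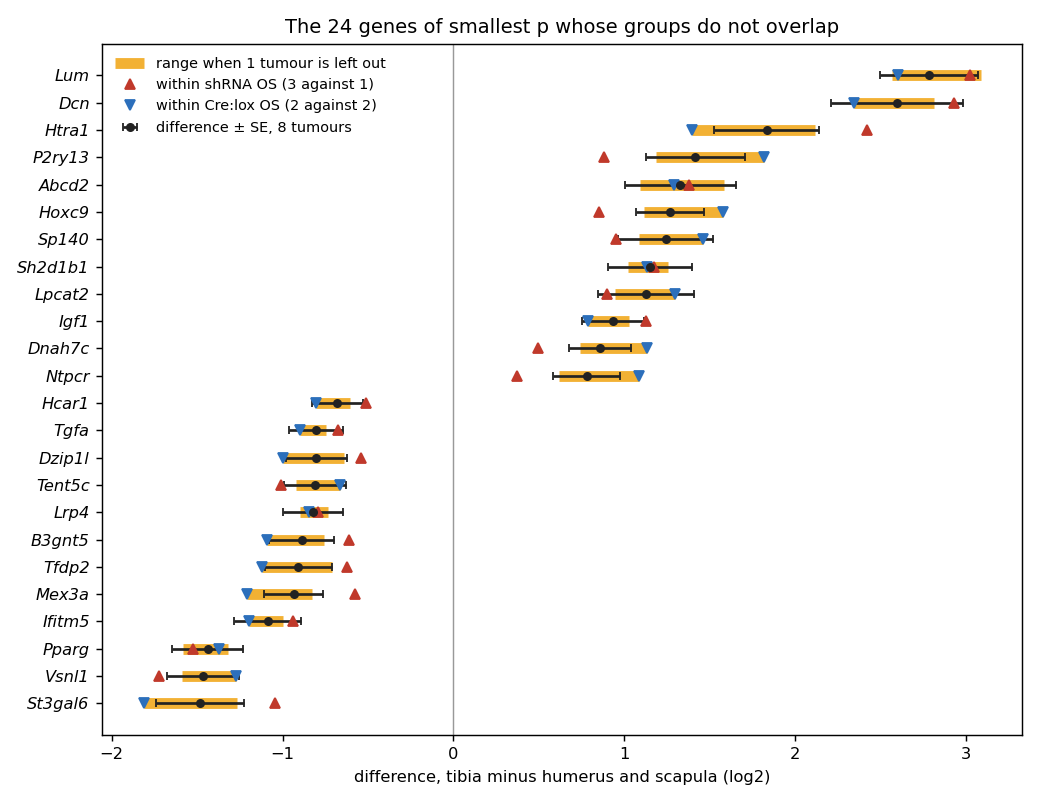
Difference between sites (log2, horizontal axis) of the 12 genes per direction named for small p and groups that do not overlap, with ± SE, the range when 1 tumour is left out and the differences within each model. The range includes the fit without the shRNA OS humerus tumour, whose difference is the one within Cre:lox OS. Every marker keeps the side of 0 on which its gene lies, which the choice of genes fixes, and Lum at 2.78 and Dcn at 2.59 lie farthest from 0.

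Of 14 retinoid genes 2 were higher at an unadjusted p under 0.05, against 2.32% of all genes, and the count was 0 without either tibial Cre:lox OS tumour or without the Cre:lox OS humerus tumour. Crabp2, a carrier of retinoic acid, measured 9.23 and 9.71 in the tibial Cre:lox OS tumours and 5.90 to 6.61 in the other 6. The difference of 1.63 was 2.98 within Cre:lox OS and -0.17 within shRNA OS. Leaving out the shRNA OS humerus tumour gave the same 2.98, because site was then compared among Cre:lox OS tumours only. Crabp2 passed the adjusted threshold without the shRNA OS humerus tumour (limma adjusted p = 0.0457), with adjusted p-values from 0.592 to 1 when another tumour was left out and from 0.103 to 1 under other settings. Stra6, the retinol uptake receptor, had the same shape, with 8.75 and 9.24 in those 2 tumours and 7.14 to 7.69 in the rest (difference 0.92). The interaction of model and site had a limma adjusted p of 0.237 for Crabp2 and 1 for Stra6.

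Of 11 Hedgehog genes 2 were lower at an unadjusted p under 0.05, against 3.33% of all genes. Ptch1, the Hedgehog receptor and a target of the pathway, measured 10.32, 9.57, 10.07, 8.76 and 10.03 against 10.71, 10.92 and 10.69, a difference of -1.12 (SE 0.32). All 5 tibial tumours were lower. Gli2, a transcription factor of the pathway, differed by -0.70, while Gli1, its other sensitive target, differed by -0.11. Of 15 Wnt targets and antagonists 11 were higher, where 44.5% of all genes were higher. Lef1, a transcription factor and target of the pathway, was the 1 at an unadjusted p under 0.05, against 2.32% of all genes. Its difference was 1.00 (SE 0.31).

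Of 11 interferon response genes 10 were higher, where 44.5% of all genes were higher, with a median difference of 0.62. The guanylate-binding protein Gbp3 was the 1 at an unadjusted p under 0.05 (difference 0.71), against 2.32% of all genes. Tibial tumours 1 and 5 carried the high values, with list means of 8.83 and 9.39 against 7.64 to 7.95 in the other tibial tumours and 7.25 to 8.30 in the humerus and scapula tumours. Of 20 genes of E2F response and mitosis 15 were lower and 5 higher, where 44.5% of all genes were higher. Their count at an unadjusted p under 0.05 was 0 in either direction, against 5.64% of all genes. Of 13 hypoxia and glycolysis genes 1, the peptide hormone gene Adm, was lower at that bound (difference -0.63), against 3.33% of all genes. Of 11 immediate early and heat shock genes 0 passed this bound.

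Skeletal muscle genes were higher in all 15 measured, where 44.5% of all genes were higher, with a median difference of 0.75. Yet 0 reached an unadjusted p under 0.05. The list means were 8.43, 7.35, 10.52, 10.44 and 8.91 in the tibial tumours and 7.92, 7.89 and 10.17 in the others. Tibial tumours 3 and 4 and the scapula tumour were high, and the groups overlapped. Lum, Dcn and the macrophage genes were measured in the same RNA, and the part of muscle or its connective tissue in their differences was not tested.

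The lists of the remaining cell types varied in how many members reached an unadjusted p under 0.05. Of 12 endothelial genes 11 were lower and 1 higher, where 44.5% of all genes were higher, and the median was -0.20. The 1 higher was Vwf, a clotting factor of vessel walls, at an unadjusted p under 0.05 (difference 0.40), against 2.32% of all genes. Among 10 smooth muscle and pericyte genes, 2 were lower at an unadjusted p under 0.05, against 3.33% of all genes. Cspg4, the NG2 proteoglycan of pericytes and mesenchymal progenitors, measured 9.10 to 10.22 against 10.49 to 10.65 (difference -0.91), and Notch3 differed by -0.64. The groups of Cspg4 did not overlap, against 2% of all genes in this direction. Car2, a carbonic anhydrase of red cells that osteoclasts also use, measured 7.69, 7.96, 9.02, 6.31 and 6.72 against 9.57, 8.08 and 9.30, a difference of -1.82 (SE 0.39). Alas2, the haem synthesis enzyme of red cells, differed by -0.65. Car2 and Alas2 were the 2 of 6 erythroid genes at an unadjusted p under 0.05, against 3.33% of all genes. Medians were 0.19 over 13 neutrophil, 0.13 over 14 T and NK cell, -0.05 over 11 B cell, -0.15 over 8 Schwann cell genes and close to 0 over 9 epidermis genes, and in each of these lists 0 members reached that bound.

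**Figure D5:**
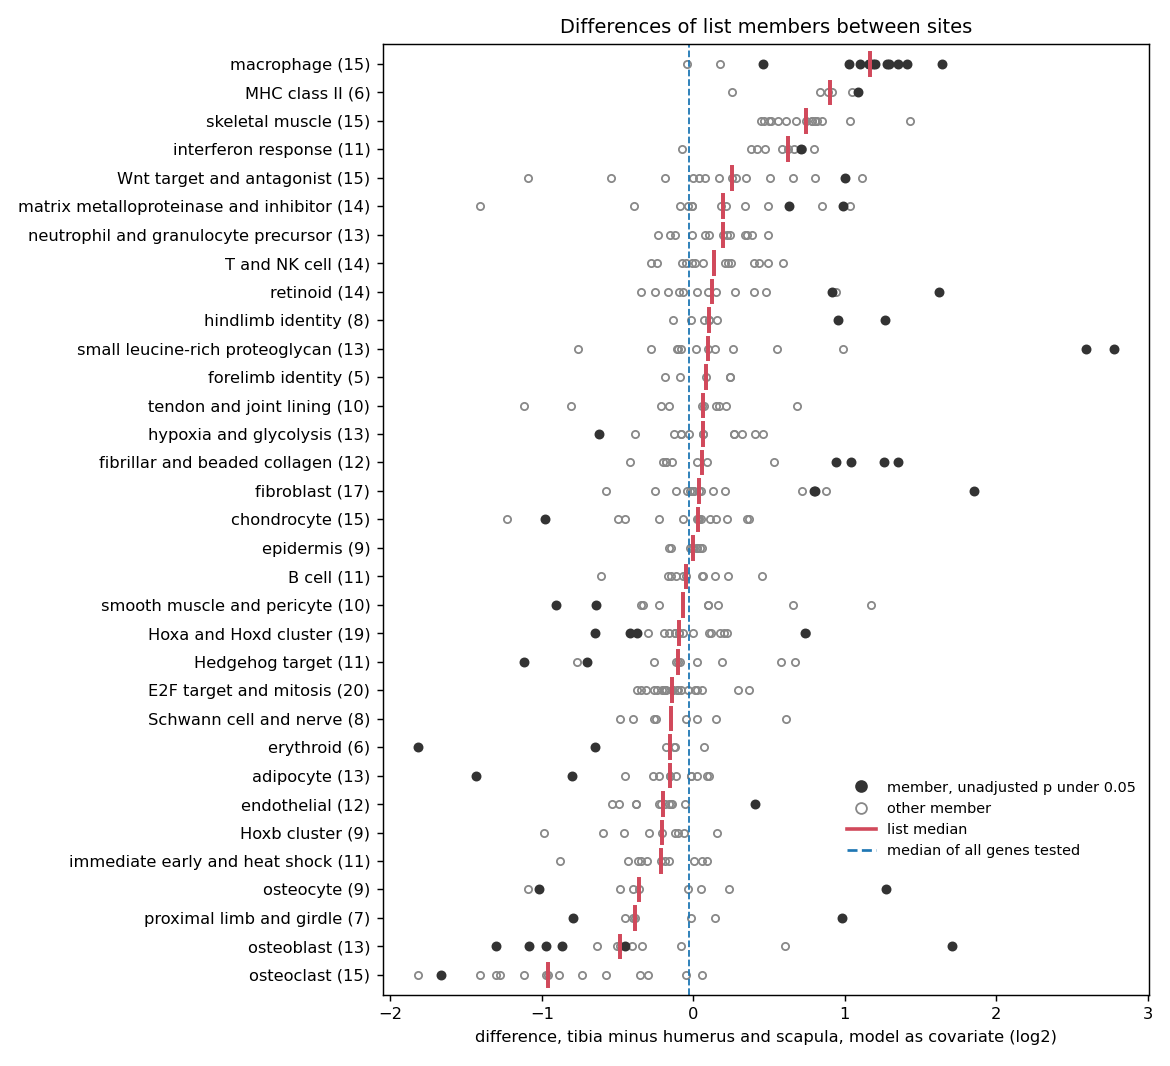
Difference between sites of every measured member (points, horizontal axis, log2) of 33 gene lists, with filled points at an unadjusted p under 0.05, a red bar at each list's median and a dashed line at the median of all genes tested. Macrophage genes have the highest median (1.17) and osteoclast genes the lowest (-0.96), and the single high points of the small leucine-rich proteoglycans are Lum and Dcn.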

How the data were processed

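RNA of 8 primary tumours was measured on 1-colour arrays, with biotin labelling, per the labels' protocols. The deposited values are log2 levels that the authors computed with RMA, per the submitters' processing notes. The notes also list mm9. RMA shrinks differences of dim probe sets, and its version is not given in the sources used here. Of 35556 probe sets, 21789 had 1 gene symbol in the platform annotation and were used, 1621 had several and 12146 had none listed. The probe set of highest mean stood for a gene, giving 19938 genes, and 19856 were found in the GRCm38.p6 gene table, used for names and gene order. No dim genes were filtered out.

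Sites were compared with limma 3.58.1 (lmFit, eBayes, R 4.3.3), model as covariate, Benjamini-Hochberg adjustment over all genes and a threshold of 0.05. Replicates were taken as separate tumours because each label has its own number. The p-values set the site difference against the spread between these samples, with 1 estimate of the spread shared by both models. The shRNA OS model held 1 tumour outside the tibia, which adds no spread of its own. The script was tested on simulated data. The 34 gene lists (435 members, 397 measured) and the tumour groups were chosen with earlier results of these data known, and lists are described by counts and medians with no test. Named were the 12 genes per direction of smallest p whose groups did not overlap (symbols such as Rik or Gm numbers counted only, 1 skipped), all hindlimb and forelimb genes, up to 3 members of smallest p per list at an unadjusted p under 0.05 (5 for limb and matrix lists), Rb1, sex-linked genes, and genes past the threshold with 1 tumour left out. Further list members were named after their values were seen, and separation within both models was counted after seeing the data. RefSeq promoters matched 53 of 79 named genes. Settings varied were the scaling (quantile, median), filters on dim genes at the 25th percentile and the median, the choice of probe set (mean, each alone), a trended robust eBayes, weights per array, the covariates (none, Rb genotype added), the tumours (1 model, Rbfl/+, each left out in turn), the threshold, and an exact permutation test in place of limma.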

Additional observations from a re-analysis of the deposited data

Results flagged for a closer look

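Tibial tumours were searched for a value far from the other 4, in 117 results of which chance would give about 6, and 12 were found. The array of tibial tumour 2 had a mean correlation of 0.941 and a mean rank correlation of 0.934 with the other arrays, and it also had the lowest mean level of the Wnt list, 7.64 against 8.16 to 8.34. Tibial tumour 1 stood apart with Hoxc12 at 7.23 against 5.84 to 6.11, with H2-Ab1 at 12.06 against 10.28 to 10.79 and with the MHC class II list at 11.09 against 9.50 to 9.95. The same tumour had Xist at 5.95 against 11.80 to 12.84 and the Y-linked genes Kdm5d, Uty and Eif2s3y at 6.02, 6.96 and 6.65, where the other tibial tumours lay at 4.60 to 4.76, 4.23 to 4.37 and 3.40 to 3.64. The scapula tumour had similar levels of the Y-linked genes, at 6.05, 7.11 and 6.55, with Xist at 6.55. Flags of related genes in 1 tumour are not independent, so the chance count is a rough guide. Hoxa10 was low in tibial tumour 4, at 7.51 against 8.21 to 8.39, and the Hoxb list was low in tibial tumour 5, at 6.70 against 7.33 to 7.38.

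In 5 of 113 results compared between the models, every tibial tumour of one model lay above, and every tibial tumour of the other model below, all humerus and scapula tumours of its own model. Each rests on 1 humerus tumour of shRNA OS, and mean differences of opposite sign with overlapping tumours are not counted here. With so few tumours per model this pattern also arises by chance. The 5 were not compared with a chance count, so by themselves they cannot decide whether site acts differently in the models. The differences among shRNA OS and among Cre:lox OS tumours were -0.46 and 0.77 in Hoxc5, -1.01 and 1.19 in Hoxc6, and -1.64 and 1.08 in Hoxc8. In mean list levels they were -0.70 and 0.63 for the forelimb list and -0.10 and 0.05 for the Hoxa and Hoxd list. For the 3 genes the interaction of model and site gave a limma adjusted p of 1, and for the 2 lists the difference between the models was not tested.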

How the results depend on the processing

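Every setting listed for the processing was run. The exact permutation of site within model has 24 arrangements, so its smallest possible p is 0.0417 and its smallest adjusted p was 0.999. No paired analysis was possible because the labels give the tumours no shared replicate numbers. The count of 0 genes past the adjusted threshold became 1 (Lum) at a bound of 0.25, and 0 to 1 when 1 tumour was left out. With 1 tumour left out, genes at an unadjusted p under 0.05 numbered 307 to 720 higher and 427 to 835 lower, and genes with separate groups 173 to 448 higher and 567 to 1545 lower, counts that grow with fewer tumours. With the 9969 genes above the median level, 303 were higher by p and 47 by separation. The main fit gave 462 and 121 of 19938 genes. Higher genes by p were 793 with array weights and 176 with no covariate. The shRNA OS tumours alone gave 138 higher and 278 lower by p and 2849 and 4405 by separation, the Cre:lox OS tumours alone 2564 and 4224 by separation, and the Rbfl/+ tumours alone 851 and 1097.

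Of 74 named genes, the 24 chosen for small p among genes with separate groups kept their direction under every alternative, a direction that the choice of genes favours. Reversals, for which the cause was not tested, were Hoxc6 at -0.076 and Hoxc4 at -0.045 with array weights, Hoxc8 at 0.13 with no covariate, and Hoxc12 at 0.012 and Hoxc6 at -0.19 in Rbfl/+ tumours. In shRNA OS alone they were Tbx4 at -0.049, Hoxc5 at -0.46, Hoxc6 at -1.01, Hoxc4 at -0.28, Crabp2 at -0.17 and Stra6 at -0.033, and in Cre:lox OS alone Hoxc11 at -0.070, Isl1 at -0.086, Pitx1 at 0.11 and Hoxc8 at 1.08. With 1 tumour left out, signs also turned between lowest and highest values of -0.051 and 0.28 (Hoxc13), -0.17 and 0.38 (Isl1), -0.77 and 1.08 (Hoxc8), -0.18 and 0.11 (Pitx1), -0.070 and 0.31 (Hoxc11), -0.18 and 1.19 (Hoxc6), -0.14 and 0.36 (Hoxc4) and -0.044 and 0.22 (Tbx4). Of 23 list counts of 1 to 3 members at an unadjusted p under 0.05, 22 moved by over 1.5 times with 1 tumour left out, and of 3 larger counts 0 did (4 collagen genes higher throughout, 4 to 7 osteoblast genes lower, 9 to 13 macrophage genes higher). Genes near the dim end of the arrays, such as Tbx5, have compressed differences.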
